A study of Homo sapiens with 8 samples.

Results

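The kinesin superfamily genes outside the kinesin-2 family were followed through 8 RNA-seq libraries of human pluripotent stem cells in which KIF3A or KIF3B, the motor subunits of kinesin-2, had been knocked out. The members were chosen by name alone: every gene whose symbol is KIF with a number and an optional letter A to C, or KIFC1 to KIFC3, leaving out KIF3A, KIF3B, KIF3C and KIF17. The rule gave 38 of the 58302 genes in the deposited count table, spread over 16 chromosomes. Kinesins with other symbols fall outside it, such as CENPE, which is listed below among the mitotic partners.

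The study set knockout cells beside isogenic controls in a pair of cell lines. WTC11, an induced pluripotent stem (iPS) cell line, gave 2 control libraries and 3 KIF3B-/- libraries. WA09, an embryonic stem (ES) cell line, gave 2 control libraries and 1 KIF3A-/- library, so that group has no replicate. The labels tie WTC11 control 1 and KIF3B knockouts 1 and 2 to guide RNA 1, WTC11 control 2 and KIF3B knockout 3 to guide RNA 2, and all 3 WA09 libraries to 1 guide RNA against KIF3A. All cells were undifferentiated and untreated, were kept in mTeSR1 medium with no feeder cells, and were lysed in pools of 100 to 1000 cells for SMART-Seq amplification and Nextera XT library preparation. The series text speaks of several clones, but the labels do not say which library came from which, so the p-values below reflect only how far these libraries scatter, and that scatter may be technical. Line and knocked-out gene cannot be told apart, because each gene was removed in 1 line.

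Kinesins are motor proteins that use ATP to move along microtubules or to take microtubules apart from their ends. Some build and shorten the mitotic spindle, move chromosomes and finish cytokinesis, and their transcripts are known to peak when cells divide. Others carry vesicles, mitochondria and RNA through the cytoplasm, most famously along axons, and a further group works in or at the cilium, the organelle that kinesin-2 builds. Pluripotent stem cells divide fast and carry a primary cilium, so both the mitotic and the ciliary members have a known setting here.

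Libraries held between 2161890 and 2875163 counts. Every KIF3B knockout (2632475, 2387357 and 2875163 counts) was deeper than both of its controls (2161890 and 2234379). Genes with at least 1 count numbered 16658 and 17348 in the WTC11 controls, 17469 to 18562 in the KIF3B knockouts, 18307 and 18451 in the WA09 controls and 17949 in the KIF3A knockout, so every KIF3B knockout library detected more genes than either of its controls. The 7 pluripotency markers (POU5F1, NANOG, SOX2, LIN28A, DNMT3B, L1TD1 and TDGF1) were detected in every library. Among 8 neuronal markers ELAVL4 was at 0 throughout, among 7 multiciliated cell markers MCIDAS and TEKT1 were at 0, and among 7 fibroblast markers DCN and LUM were at 0. The other markers of these lists had counts. In CPM (counts scaled to a common library total) the neuronal list summed to 51.8 to 95.7 over the libraries. The multiciliated list summed to 4.20 to 19.8 CPM and the fibroblast list to 148 to 450.5 CPM. The pluripotency markers summed to 3151 to 4180 CPM. KIF3A had 75 counts in its knockout library against 174 and 167 in the WA09 controls. KIF3B had 129, 86 and 107 counts in its knockouts against 71 and 59 in the WTC11 controls, so RNA level does not mark that knockout.

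The 38 kinesins together took between 0.265% and 0.301% of a library's counts. A count was found in all 8 libraries for 31 of them, and KIF2B, a kinesin-13, was at 0 in all. By mean CPM (counts scaled to a common library total), 14 members lay at or above 100 CPM, 11 between 10 and 100, 9 between 1 and 10, and 4 below 1 CPM. Of the summed CPM of these 38 members, the 13 kinesins of mitosis and cytokinesis held 59.0% and the 13 cargo kinesins 33.6%. The microtubule-end kinesins KIF2A and KIF2B held 4.96%, the 6 kinesins of cilium and Hedgehog signalling 1.79%, and the 4 others (KIF12, KIF25, KIF26A and KIF26B) 0.717%. Without strand information or lengths in the table, levels of different genes are compared below only after division by the length of the longest annotated transcript (CPM per kilobase).

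**Figure D1:**
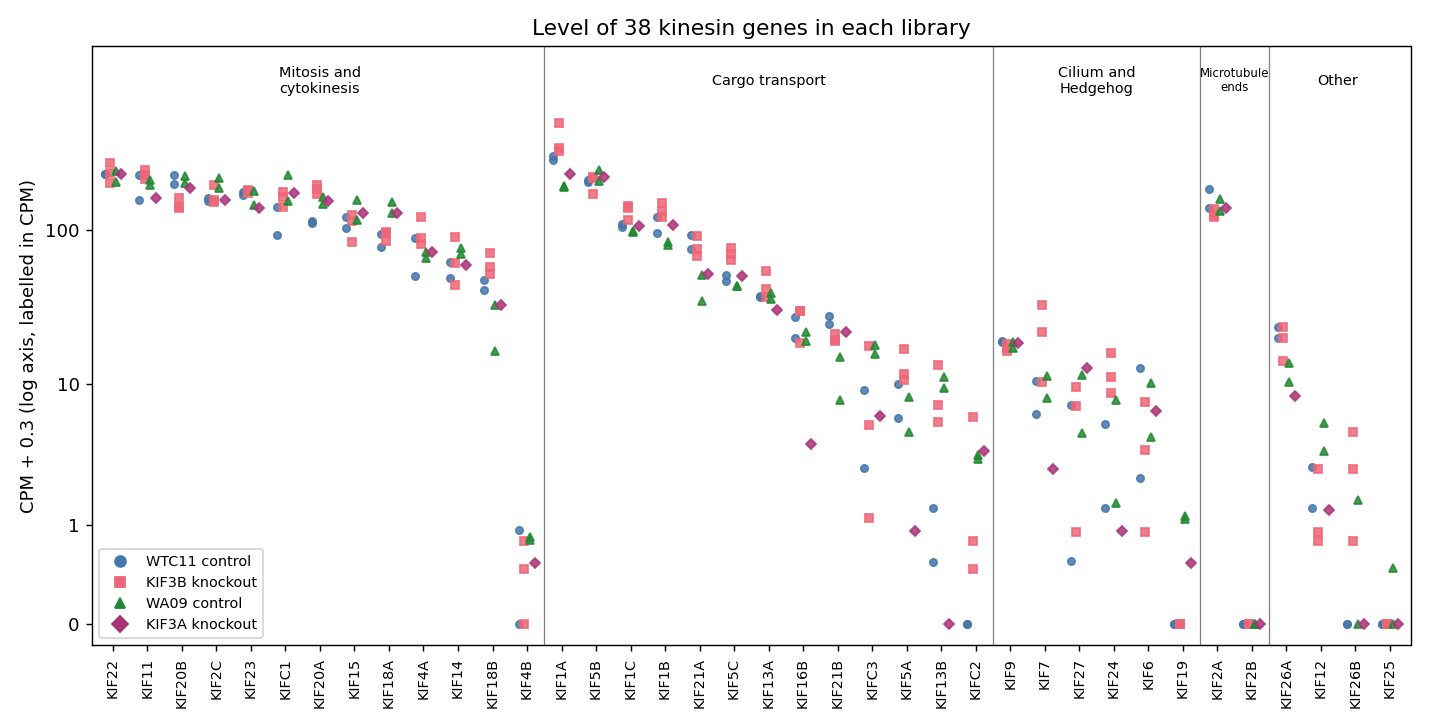
Level of each of the 38 kinesin genes in each library, on a log axis of CPM + 0.3, grouped by role and ordered by mean CPM within a role; each point is 1 library. The mitotic members other than KIF4B lie above 10 CPM in all 8 libraries, from 16.5 CPM (KIF18B, WA09 control 1) to 269 (KIF22, KIF3B knockout 3). The cargo members run from KIF1A, which reached 483 CPM, down to KIFC2 and KIF13B, which touch 0.

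Per kilobase of the longest transcript, the 4 highest kinesins were mitotic. KIF22, a chromokinesin that pushes chromosome arms from the spindle poles, stood first with a mean of 90.6 CPM per kilobase (78.9 to 107 over the 8 libraries). KIFC1, a minus-end motor that bundles spindle poles, had 58.0 (34.4 to 82.7), and KIF2C, which removes tubulin at centromeres to correct attachments, had 57.9 (50.7 to 72.8). Next came KIF20A, which acts at the central spindle in cytokinesis, with 48.2 (34.4 to 60.6). The ranges of KIFC1, KIF2C and KIF20A overlap, so their order is within the spread between libraries, whereas the lowest KIF22 library lay above every KIF2C and KIF20A library. With the median transcript length in place of the longest, KIFC1 came first at 224 CPM per kilobase, and KIF22, at 143, stood below KIF20A (190.3), KIF2C (171), KIF2A (169.9), which is not in the mitotic group, and the cargo kinesin KIF1C (149).

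Again per kilobase of the longest transcript, the most abundant cargo kinesins were KIF5B at 35.6 (28.6 to 41.0), the widely expressed heavy chain of conventional kinesin, KIF1A at 31.4 (20.4 to 52.4), a synaptic vesicle motor best known from neurons, and KIF1C at 14.4 (12.2 to 18.0), a motor of dense-core vesicles and RNA. With the median transcript length KIF1C led them at 149, against 65.6 for KIF5B and 61.2 for KIF1A, so this order rests on the length chosen. Of the neuronal heavy chains, KIF5C had a mean of 8.03 CPM per kilobase and KIF5A 1.48. Among the ciliary members KIF9, a motor of the motile cilium, led with 5.38 (4.92 to 5.67), followed by KIF7, the ciliary-tip regulator of Hedgehog signalling, with 2.85 (0.581 to 7.16) and KIF27, its close paralog, with 1.46 (0.0985 to 2.75). KIF9 was also the steadiest of these, with 41 to 51 counts in every library, while KIF27 ran from 1 to 31 counts and KIF6, another motor of the motile cilium, from 2 to 28. Exons of KIF9 share 178 bases with KLHL18 and 870 with KIF9-AS1 on the opposite strand, and without strand their reads cannot be separated. KIF2A, the kinesin-13 that depolymerises microtubules at spindle poles and in axons, had 41.9 CPM per kilobase (36.1 to 54.0). Of the 4 others, KIF26A, a kinesin with no ATPase activity, had 2.49 CPM per kilobase, KIF12 0.915 and KIF26B, a relative of KIF26A, 0.101.

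KIF19, which shortens ciliary microtubules, had 3 counts in each WA09 control, 1 in the KIF3A knockout and 0 in all 5 WTC11 libraries. KIF25 had a single count, in WA09 control 1. A gene at 0 in a library may still have a level of up to 3 counts, which is 1.08 to 1.38 CPM here, so both genes stayed at or under what these libraries can measure. Such limits cover counting error only.

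KIF4B had 0 to 2 counts per library beside 110 to 334 for KIF4A, the chromokinesin that sets the length of the central spindle. KIF4B (chromosome 5, 155013755 to 155018132) is an intronless copy of KIF4A (chromosome X, 70290090 to 70420832), and how reads that match both were counted is not given in the sources used here. Aligned over 3702 columns, the coding sequences were 95.7% identical, and 156 of 3628 windows of 75 bases (4.30%) held no difference. Coding bases 61 to 135 of both genes, from GENCODE release 29, are shown as an example of how much tells a read from either copy apart, with the bases that differ in capitals:
KIF4A: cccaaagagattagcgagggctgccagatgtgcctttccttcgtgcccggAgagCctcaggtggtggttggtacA
KIF4B: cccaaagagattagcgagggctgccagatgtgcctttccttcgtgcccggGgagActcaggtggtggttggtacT
The counts of KIF4B are therefore uncertain, and the gene was too low to be tested.

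The promoters of the mitotic members shared short motifs that the name rule did not use. The cell cycle homology region (CHR, TTTGAA or TTCGAA) and the CCAAT box are known elements of genes whose transcription peaks before division. Both strands were searched from 250 bases before to 50 bases after each start site in RefSeq (GRCh38.p14), where 30 of the 38 kinesins matched by symbol, with 39 windows. All 13 mitotic kinesins matched. A CHR was present in 12 of 14 windows of mitotic kinesins (85.7%), against 16.4% of all 35116 promoter windows. KIF22 has 2 of these windows, which overlap and hold the same CHR site, so that site is counted in both. CCAAT was present in 11 of 14 (78.6%, against 34.6% of all), and both in 10 of 14 (71.4%, against 6.38% of all). Of 13 windows of the 8 cargo kinesins matched, 1 held both, that of KIF5B, and of 6 windows of the 4 ciliary kinesins matched, 1 did, that of KIF24. No CHR match in a kinesin window overlapped a CCAAT match, and a match is a description of the sequence, not a measured binding site.

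Promoter stretches of 110 bases are shown for 5 mitotic kinesins, because 4 hold a CCAAT box followed by a CHR and KIF20A does not. They read 5′ to 3′ on the strand of the gene, and capitals mark the CHR and the CCAAT box. A CHR that lies on the other strand reads TTCAAA here. A CCAAT box that does reads ATTGG. They cover chr10:92593020-92593129 for KIF11 (plus strand), the motor that slides spindle poles apart, chr11:28108157-28108266 for KIF18A (minus), which shortens kinetochore microtubules, chr15:69414239-69414348 for KIF23 (plus), the centralspindlin motor of cytokinesis, chrX:70289994-70290103 for KIF4A (plus), and chr5:138179002-138179111 for KIF20A (plus):
KIF11: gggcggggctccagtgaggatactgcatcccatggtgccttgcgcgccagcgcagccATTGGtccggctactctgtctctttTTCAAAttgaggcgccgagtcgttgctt
KIF18A: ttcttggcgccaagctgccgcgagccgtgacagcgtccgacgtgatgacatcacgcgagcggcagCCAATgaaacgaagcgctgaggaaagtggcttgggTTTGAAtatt
KIF23: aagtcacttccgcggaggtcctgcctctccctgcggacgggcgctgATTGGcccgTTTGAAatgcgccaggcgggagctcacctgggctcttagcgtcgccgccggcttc
KIF4A: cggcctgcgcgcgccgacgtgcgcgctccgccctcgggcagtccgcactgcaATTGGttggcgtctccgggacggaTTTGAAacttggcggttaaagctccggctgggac
KIF20A: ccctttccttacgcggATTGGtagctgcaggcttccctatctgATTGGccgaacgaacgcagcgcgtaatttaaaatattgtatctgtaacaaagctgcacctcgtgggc
KIF20A carried a pair of CCAAT boxes and neither CHR spelling in its window, and KIF2C carried none of the motifs in its own. The other mitotic members have a CHR, with or without CCAAT.

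The comparison of KIF3B knockout with WTC11 control asked how the other kinesins stand when 1 kinesin-2 motor subunit is missing. No kinesin passed an adjusted p of 0.05 in edgeR's quasi-likelihood test, and neither did any of the 14216 genes tested (0.0%), although 2366 of these (16.6%) had an unadjusted p under 0.05. DESeq2 called 246 genes, 1 of them a kinesin (KIF20A), and limma voom called 0. Of the 34 kinesins tested, 24 had a positive log2 fold change, against 51.7% of all genes, and the median was 0.25, against 0.03 over all genes. Before adjustment, p was under 0.05 for 6 kinesins on the higher side (8.98% of all genes) and 1 on the lower side (7.67%); without KIF3B knockout 2 it was 3 of 32 on the higher side. Knockout and control libraries did not overlap for 12 kinesins that were higher (16.5% of all genes) and 4 that were lower (18.0%).

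Longer genes had higher fold changes in this comparison over all genes (Spearman's rho 0.35 across genes, which are not independent replicates), and the kinesins tested are long. Their longest transcript had a median of 4748 bases over all 38 members, against 3585 over all genes tested. With the trend of fold change on length removed, the kinesin median was 0.074, and with the number of detected genes as a covariate it was 0.057. Every KIF3B knockout detected more genes than its controls, so fits with that covariate cannot fully separate it from the knockout. The same limit holds between the lines, as both WA09 controls detected more genes than both WTC11 controls. Summed fibroblast markers were 148 and 174 CPM in the WTC11 controls and 219, 450.5 and 223 in the KIF3B knockouts, the middle value being KIF3B knockout 2. Their part in the kinesin values was not tested. In bulk RNA of this kind, fewer cells that express a gene and less RNA per cell cannot be told apart.

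KIF20A (chromosome 5, 138178719 to 138187715) had 240 and 252 counts in the WTC11 controls, 477, 392 and 540 in the KIF3B knockouts, 415 and 396 in the WA09 controls and 347 in the KIF3A knockout. The 3 KIF3B knockouts lay above both of their controls, and the WTC11 controls were the low group of the 4. In CPM the means were 112 ± 2.97 (SD, n = 2) and 182 ± 11.9 (SD, n = 3) in WTC11, and 155 ± 11.5 (SD, n = 2) in the WA09 controls beside 153 in the KIF3A knockout. The KIF3B log2 fold change was 0.70 ± 0.13 (SE), the smallest p of all kinesins in that comparison (edgeR adjusted p = 0.171). DESeq2 called it (log2 0.71, adjusted p = 0.0158), and so did edgeR with no filter on low counts (adjusted p = 0.00568). Exons of KIF20A share 68 bases with CDC23 and 132 with BRD8 on the opposite strand, and without strand their reads cannot be separated. CDC23 had a log2 fold change of 0.34 ± 0.20 and BRD8 of -0.25 ± 0.26. Their part in the KIF20A counts was not tested.

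KIF20B (chromosome 10, 89701610 to 89774939), the closest relative of KIF20A and likewise needed for cytokinesis, had the opposite sign. It had 487 and 436 counts in the WTC11 controls and 416, 321 and 383 in the KIF3B knockouts, against 560, 541 and 418 in the WA09 controls and the KIF3A knockout. All 3 KIF3B knockouts lay below all other libraries in CPM, with means of 210.4 ± 18.1 (SD, n = 2) in the WTC11 controls and 145 ± 11.8 (SD, n = 3) in the knockouts. Its KIF3B effect was -0.53 ± 0.13 on the log2 scale (edgeR adjusted p = 0.171). The promoter window of KIF20B held CHR and CCAAT matches, where that of KIF20A held only CCAAT. Whether these motifs bear on the opposite signs was not tested. KIF20B was called by edgeR with no filter on low counts (adjusted p = 0.0434) and not by DESeq2 (adjusted p = 0.0899).

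The other mitotic kinesins had smaller fold changes or wider errors. KIFC1 had 203 and 307 counts in the WTC11 controls and 424, 321 and 483 in the KIF3B knockouts, with a log2 fold change of 0.45 ± 0.22 (edgeR adjusted p = 0.335). In CPM KIF3B knockout 2 lay next to WTC11 control 2, at 139.4 against 139.1, and the fold change was -0.052 with detected genes as a covariate, 0.19 when WTC11 control 1 was left out and 0.77 when WTC11 control 2 was. KIF22, KIF23 and KIF15, the last a spindle motor that backs up KIF11, had log2 fold changes of 0.03 ± 0.14, 0.05 ± 0.13 and -0.05 ± 0.21. In all, 10 of 12 mitotic kinesins tested were on the higher side, with a median of 0.17. KIF2A, which also acts at spindle poles, had 182 and 137 CPM in the WTC11 controls and 136, 121 and 125 in the KIF3B knockouts, where knockout 1 lay just under control 2 (log2 -0.32 ± 0.16). It shares 428 exon bases on the same strand with IPO11, a nuclear import gene with a log2 fold change of 0.65 ± 0.24, and how reads of that stretch were assigned is not given in the sources used here.

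Of the cargo kinesins, 10 of 13 were on the higher side, with a median log2 fold change of 0.31, and 7 of them had no overlap between groups, beside 51.7% of all genes above 0 and 16.5% higher with no overlap. KIF13B (chromosome 8, 29067279 to 29263124), a transporter of phosphoinositide and receptor cargo, had 3 and 1 counts in the WTC11 controls and 19, 13 and 37 in the KIF3B knockouts. The WA09 controls, with 24 and 30 counts, lay among the KIF3B knockouts, and the WTC11 controls lay below both groups. The KIF3A knockout, at 0 counts, was lower still. The KIF3B log2 fold change of KIF13B was 3.19 ± 0.87 (edgeR adjusted p = 0.175), and it ranged from 2.63 to 4.13 when 1 library was left out.

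KIF1A (chromosome 2, 240713761 to 240821036) had 609 and 654 counts in the WTC11 controls and 832, 1113 and 926 in the KIF3B knockouts, and 487 to 517 in the 3 WA09 libraries. All WTC11 libraries lay above all WA09 libraries, and KIF3B knockout 2 was the highest of all. Its log2 fold change of 0.39 ± 0.17 (edgeR adjusted p = 0.287) was 0.12 with the length trend removed, 0.77 with detected genes as a covariate and 0.18 once KIF3B knockout 2 was left out. KIF5C (chromosome 2, 148875250 to 149026759) had 111 and 104 counts in the WTC11 controls and 182, 176 and 179 in the KIF3B knockouts, while the 3 WA09 libraries had 110 to 117. The knockouts stood above the other 5 libraries in CPM, with 70.1 ± 6.09 (SD, n = 3) against 49.0 ± 2.65 (SD, n = 2) in their controls. On the log2 scale the effect was 0.52 ± 0.22 (edgeR adjusted p = 0.281), or 0.29 with the length trend removed. KIF5B, its paralog, had -0.04 ± 0.14 and KIF5A had no p under 0.05 here.

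KIFC2, a minus-end motor known from neurons, had 0 counts in both WTC11 controls and 1, 14 and 2 in the KIF3B knockouts, so its mean was at least 1.75-fold higher. Without KIF3B knockout 2 its knockout mean of 0.550 CPM lay under the limit of 1.37 CPM for a count of 0, and no bound remained. KIFC2 shares 791 exon bases with FOXH1 on the opposite strand, which had a log2 fold change of 0.09 ± 0.21, and reads of that stretch cannot be assigned. KIF26B likewise had 0 in both controls and 7, 11 and 2 counts in the knockouts (at least 1.99-fold higher, or 1.24-fold without KIF3B knockout 2). Both stood near the counting limit and neither passed the test (edgeR adjusted p = 0.289 and 0.311).

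Among the ciliary kinesins, KIF7 (chromosome 15, 89608789 to 89655451) had 23 and 14 counts in the WTC11 controls and 27, 75 and 61 in the KIF3B knockouts, 29 and 22 in the WA09 controls and 6 in the KIF3A knockout. KIF3B knockout 1 lay between its controls in CPM and the other 2 above them. On the log2 scale its effect was 1.35 ± 0.59 (edgeR adjusted p = 0.290), and 2.28 with detected genes as a covariate. KIF7 shares 589 exon bases with TICRR, a replication gene on the opposite strand, which had 84 and 85 counts in the WTC11 controls, 134, 165 and 386 in the KIF3B knockouts, 86 and 120 in the WA09 controls and 33 in the KIF3A knockout. TICRR had log2 fold changes of 1.18 ± 0.40 for KIF3B and -1.42 ± 0.60 for KIF3A, the same signs as KIF7, and reads of the shared stretch cannot be assigned to either gene. KIF24, which restrains cilium formation at the centriole, had 3 and 12 counts in the WTC11 controls and 23, 37 and 31 in the knockouts. Its log2 fold change was 1.80 ± 0.89 (edgeR adjusted p = 0.346), with 1.13 without WTC11 control 1 and 3.08 without WTC11 control 2. KIF24 shares 143 exon bases with UBAP1 on the opposite strand, which had a log2 fold change of 0.10 ± 0.23. Reads of that stretch cannot be assigned either.

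**Figure D2:**
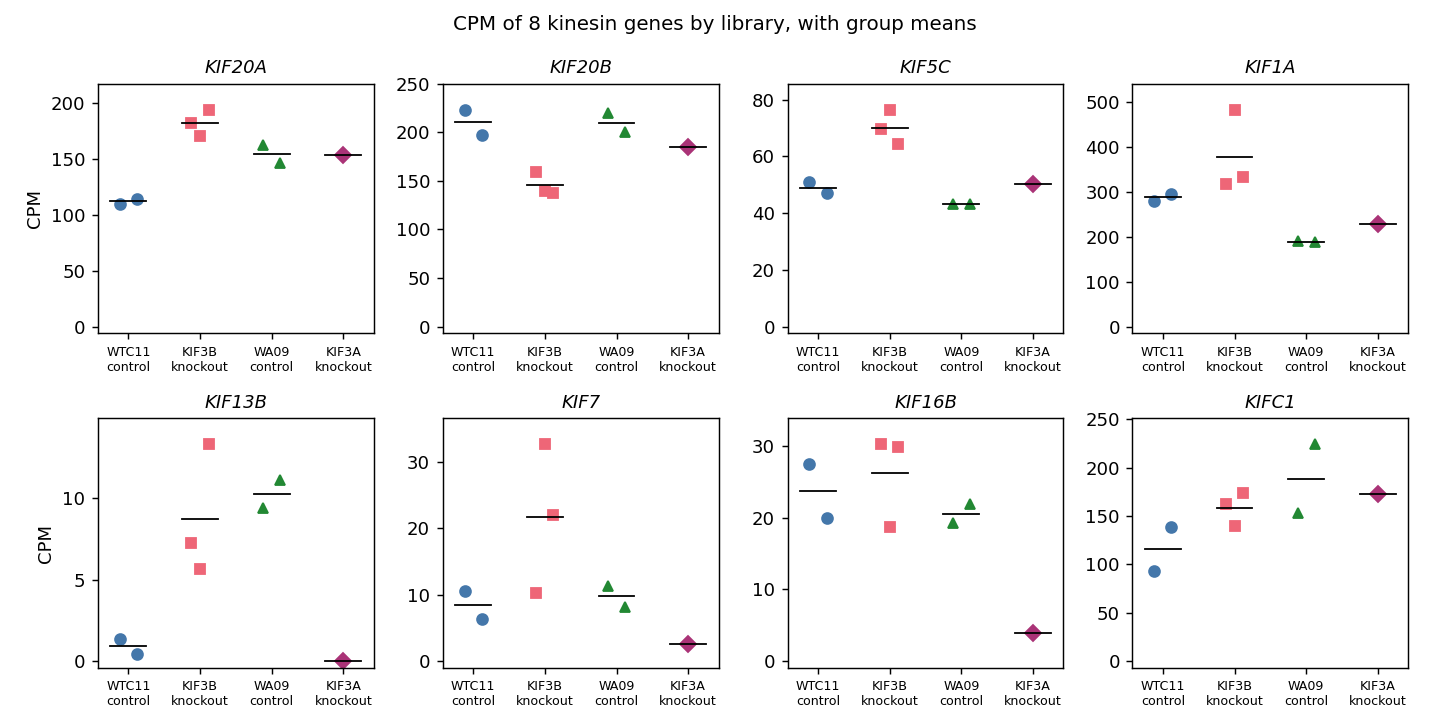
CPM of 8 kinesin genes in each library (points) with the mean of each group (lines), each panel on its own linear axis that includes 0. KIF20A and KIF13B are lowest in the WTC11 controls or the KIF3A knockout, KIF20B is lowest in the 3 KIF3B knockouts, and KIF16B and KIF7 are lowest in the KIF3A knockout.

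KIF3A knockout against WA09 control set 1 library against 2, and the lone library was assumed to vary like the other groups. No kinesin and none of the 14216 genes passed (0.0%; edgeR), with 527 genes (3.71%) at an unadjusted p under 0.05 and 1 gene called by DESeq2, not a kinesin. Of the 34 kinesins, 12 had a positive log2 fold change (48.0% of all genes), and the median was -0.13, or -0.10 with genes at 0 set to their bound, against -0.02 over all genes. An unadjusted p under 0.05 was found for 0 kinesins on the higher side (1.54% of all genes) and 3 on the lower side (2.17%), all of them cargo kinesins. Without WA09 control 2 it was 1 on the higher side. The knockout library lay above both controls for 9 kinesins (33.8% of all genes) and below both for 15 (33.0%).

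KIF13B had 24 and 30 counts in the WA09 controls and 0 in the KIF3A knockout, at least 7.75-fold lower than the control mean of 10.3 ± 1.19 CPM (SD, n = 2; edgeR adjusted p = 1). KIF16B (chromosome 20, 16272104 to 16573434), a motor of early endosomes, had 49 and 59 counts in the WA09 controls and 9 in the knockout, the lowest of the 8 libraries, which otherwise held 43 to 83. Its log2 fold change was -2.36 ± 0.62 (edgeR adjusted p = 1). KIF5A (chromosome 12, 57549998 to 57586632) had 21 and 13 counts in the controls and 2 in the knockout, with -2.82 ± 1.03 (edgeR adjusted p = 1). KIF7, with 6 counts against 29 and 22, had -1.86 ± 0.91 (edgeR adjusted p = 1), the next smallest p after these 3.

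These 4 are genes of low level, and the range of levels and the fold in the next sentences were picked with those values known. Of the 11 kinesins with a control mean of 5 to 25 CPM, these 4 were at least 3-fold lower in the KIF3A knockout than in the control mean, as were 309 of all 3843 genes in that range (8.04%). In the same range 403 genes (10.5%) differed at least 3-fold between the 2 WA09 controls themselves. That share counts both directions and sets 1 library against 1. The 8.04% counts only lower values against a control mean, so the 2 shares are not like measures. Of the genes in this range, 48 (1.25%) were at 0 in the knockout, KIF13B among them.

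The more abundant kinesins had smaller fold changes. Among the mitotic members 3 of 12 were on the higher side, with a median log2 fold change of -0.13, and none had an unadjusted p under 0.05 in edgeR. KIF2C had 548 and 502 counts in the WA09 controls and 351 in the knockout (-0.37 ± 0.20), KIF11 had 530, 525 and 364 (-0.32 ± 0.22), and KIF23 -0.23 ± 0.18, or -0.080 without WA09 control 1 and -0.37 without WA09 control 2. KIF20A and KIF20B, whose KIF3B values stood out, had 153 CPM against 155 ± 11.5 and 184 against 210.0 ± 13.8 (SD, n = 2). KIF1B, a mitochondrial and synaptic vesicle motor, had 203 and 225 counts in the controls and 244 in the knockout (0.40 ± 0.23). KIF21B, a motor that dampens microtubule growth, had 20, 41 and 50 counts (0.93 ± 0.52), with 0.53 and 1.48 when 1 control was left out. KIF24, at 20 and 4 counts in the controls and 2 in the knockout, had -2.33 ± 1.43, or -0.72 without WA09 control 1.

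**Figure D3:**
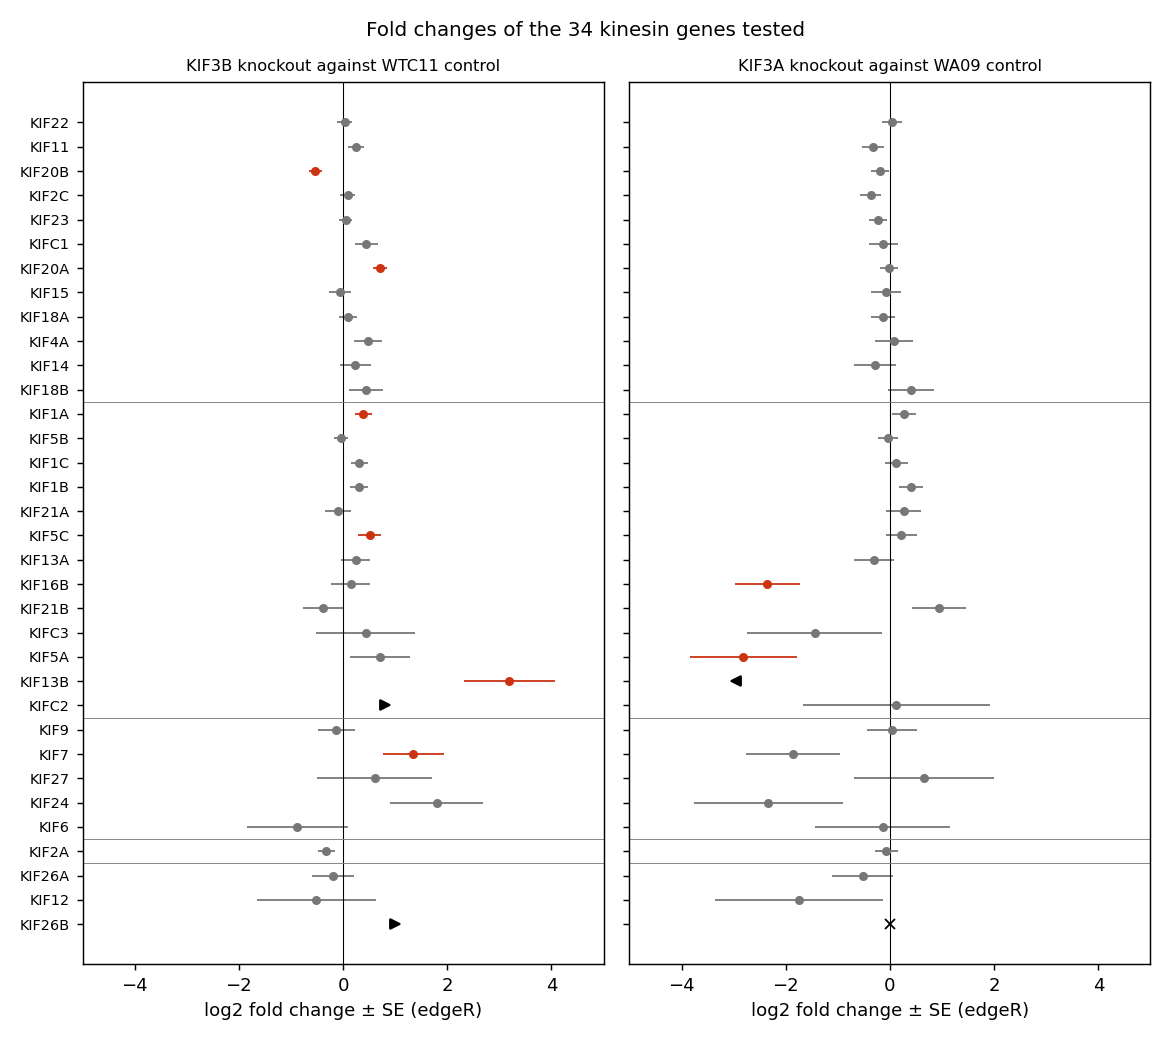
Log2 fold change ± SE (edgeR, SE derived from the F statistic) of the 34 kinesin genes tested, for KIF3B knockout (left) and KIF3A knockout (right). Genes are in the order of roles and levels. Red marks an unadjusted p under 0.05, triangles a bound where a group is at 0, and the cross a gene with no fold. On the left 24 of 34 lie above 0 and on the right 12, and no gene in either panel passed the adjusted threshold.

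The difference between both effects (KIF3A minus KIF3B) had no call among the 14216 genes (0.0%; edgeR), with 1322 (9.3%) at an unadjusted p under 0.05 and 17 called by DESeq2, none of them kinesins. On the lower side, 6 kinesins had an unadjusted p under 0.05 (5.85% of all genes), and on the higher side 0 did (3.45%). They were KIF13B, KIF16B (-2.50 ± 0.72), KIF20A (-0.72 ± 0.22), KIF5A (-3.53 ± 1.18), KIF7 (-3.21 ± 1.09) and KIF24 (-4.13 ± 1.69), with edgeR adjusted p-values of 0.494 for KIF13B, 0.519 for KIF24 and 0.515 for the other 4. Followed by KIF26B, KIF11 (-0.57 ± 0.27), KIF21B (1.33 ± 0.65) and KIF2C (-0.46 ± 0.25), they make up the 10 smallest p-values. The kinesins with an unadjusted p under 0.05 numbered 6 lower and 2 higher with the length trend removed (edgeR). They numbered 6 lower and 1 higher with detected genes as a covariate (edgeR), and 3 lower and 0 higher in limma voom. KIF24 had -2.53 without WA09 control 1, and KIF11 had -0.87 without WTC11 control 1, -0.33 without WTC11 control 2, -0.37 with the length trend removed and -0.95 with detected genes as a covariate, where KIF2C had -0.20. KIF13B was the 1 kinesin called with no filter on low counts (adjusted p = 0.00415).

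WTC11 control against WA09 control compared the lines, 2 libraries each. Of 14216 genes 4 were called (0.0281%), none of them a kinesin, while 2129 (15.0%) had an unadjusted p under 0.05 (edgeR). DESeq2 called 219 genes and limma voom 0, with no kinesin in either, while edgeR with no filter on low counts called KIF1A (adjusted p = 0.00862) and KIFC1 (adjusted p = 0.0170). An unadjusted p under 0.05 was found for 4 kinesins higher in WTC11 (7.8% of all genes) and 5 lower (7.18%), and libraries of the lines did not overlap for 8 higher and 9 lower (23.6% each way). The p-values under 0.05 numbered 1 higher and 3 lower without WA09 control 1, and 0 higher and 3 lower with detected genes as a covariate. Without WTC11 control 1 or WA09 control 2 they also numbered 3 lower. KIF21A, a cortical motor that restrains microtubule growth, had 202 and 165 counts in WTC11 controls against 89 and 138 in WA09 controls (log2 0.96 ± 0.27, edgeR adjusted p = 0.185), and KIF1A had 0.60 ± 0.19 (edgeR adjusted p = 0.197). On the other side stood KIF18A, with 206 and 172 counts against 383 and 345 (-0.69 ± 0.19, edgeR adjusted p = 0.174), KIFC1 (-0.70 ± 0.23), KIF20A (-0.46 ± 0.14) and KIF13B (-3.42 ± 0.90, edgeR adjusted p = 0.166). KIFC2 had 0 counts against 8 and 9, at least 2.37-fold lower in WTC11. KIF21B (1.18 ± 0.44), KIF18B (0.84 ± 0.36), a partner of KIF2C in shortening astral microtubules, and KIF2C itself (-0.35 ± 0.16) complete the 10 smallest p-values. With detected genes as a covariate KIF1A had 0.10, KIFC1 -0.070, KIF20A -0.29 and KIF2C -0.12. Without WA09 control 1 KIF18B had 0.42 and KIF21B 0.77, and without WA09 control 2 KIF18B had 1.43 and KIFC1 -0.39. KIFC1 had -0.44 without WTC11 control 1.

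With 4 knockout libraries pooled against 4 controls and line as a term, no kinesin and none of 13238 genes passed (0.0%; edgeR), 1137 (8.59%) had an unadjusted p under 0.05, DESeq2 called 37, none of them kinesins, and limma voom 0. Of 31 kinesins tested 19 were on the higher side (51.2% of all genes), with a median of 0.05 against 0.01. An unadjusted p under 0.05 was found for 4 on the higher side (5.47%) and 1 on the lower side (3.12%). With the length trend removed 13 of 31 were on the higher side, 1 of them with such a p. Without WTC11 control 1 or WTC11 control 2 it was 15 of 31, with 1 and 0 such p-values, and with detected genes as a covariate 17 of 31, with 2. Without KIF3B knockout 1, KIF3B knockout 2 or WA09 control 1 the kinesins with such a p on the higher side also numbered 2. In the pooled fit of all 8 libraries with line as the only further term, the kinesins with such a p were KIF20A (0.45 ± 0.15), KIF1A (0.35 ± 0.14), KIF1B (0.34 ± 0.14), KIF5C (0.41 ± 0.19) and, lower, KIF20B (-0.41 ± 0.12, edgeR adjusted p = 0.555). KIF1C (0.25 ± 0.14), KIF18B (0.43 ± 0.26), KIF2A (-0.23 ± 0.14), KIF4A (0.34 ± 0.22) and KIFC1 (0.24 ± 0.19) followed. Without the KIF3A knockout KIF20A had 0.70 and KIFC1 0.45, and without KIF3B knockout 2 KIF1A had 0.21. Without WTC11 control 1 KIF2A had -0.078, KIF4A 0.11 and KIFC1 0.046, while KIF4A had 0.52 without WTC11 control 2 and 0.21 without KIF3B knockout 3. Under the covariate of detected genes KIF20A had 0.29, KIF2A -0.13, KIF4A 0.15 and KIFC1 0.033. With the length trend removed KIF1A had 0.16, KIF1B 0.14, KIF5C 0.27 and KIF1C 0.080.

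Summed levels show the groups side by side. The 13 mitotic kinesins summed to 1555 and 1544 CPM in the WTC11 controls, 1677, 1588 and 1859 in the KIF3B knockouts, 1802 and 1748 in the WA09 controls and 1609 in the KIF3A knockout. The 13 cargo kinesins summed to 959 and 924, then 1064, 1229 and 1048, then 756 and 813, and 828 CPM in the same order. For both sums each KIF3B knockout lay above its controls. In the mitotic sum this depends on leaving out KIF2A, which also acts at spindle poles. KIF2A had 182 and 137 CPM in the WTC11 controls and 136, 121 and 125 in the KIF3B knockouts. The WTC11 controls lay below the WA09 controls in the mitotic sum and above them in the cargo sum.

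Genes that work with these motors were examined as lists, and no member of any list passed the adjusted threshold in either knockout comparison. Of 17 light chains and cargo adaptors, 11 were on the higher side in the KIF3B knockouts, with a median of 0.06, and 1 had an unadjusted p under 0.05, a smaller share than the 16.6% of all genes. That was SPAG9, a scaffold that links kinesin-1 to its cargo, with 35 and 78 counts in the WTC11 controls and 146, 134 and 190 in the knockouts (1.24 ± 0.34, edgeR adjusted p = 0.175). The most abundant, KTN1 (-0.38) and RHOT2 (0.06), anchor kinesin at the endoplasmic reticulum and at mitochondria.

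Of 20 mitotic partners 9 were on the higher side, with a median of -0.04, and their most abundant members TPX2 and BIRC5 had log2 fold changes of 0.10 and -0.14. Unadjusted p-values under 0.05 belonged to NUMA1, a spindle pole organiser (1.61 ± 0.50), and on the lower side to KNSTRN, a spindle adaptor (-0.54 ± 0.16), and to the kinetochore kinesin CENPE (-0.53 ± 0.23), so 3 of 20, near the 16.6% of all genes. Of 12 G2/M genes 2 were on the higher side, with a median of -0.15, and CDK1 (-0.40 ± 0.11), UBE2C (-0.31 ± 0.11) and CKS2 (-0.52 ± 0.13) had an unadjusted p under 0.05, on the side where 7.67% of all genes did. Their summed level was 3149 and 3118 CPM in the WTC11 controls and 2941, 2714 and 2947 in the KIF3B knockouts. The knockouts lay below both controls, where the sum of the mitotic kinesins, which leaves out KIF2A, lay above. The trend of fold change on gene length was not removed from these sums, and its part in this contrast was not tested.

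Of 23 genes of dynein and dynactin, the motor that runs towards the minus end, 11 were on the higher side, with a median of -0.03. An unadjusted p under 0.05 was found for 6 higher, among them DCTN1 (0.85 ± 0.21) and DCTN5 (0.88 ± 0.20), and for 2 lower, DYNLL1 and DYNLT1, beside 8.98% and 7.67% of all genes. In the KIF3A comparison the medians of light chains and adaptors, mitotic partners, G2/M genes and dynein genes were 0.09, -0.06, -0.03 and 0.05, and no member had an unadjusted p under 0.05 in edgeR.

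**Figure D4:**
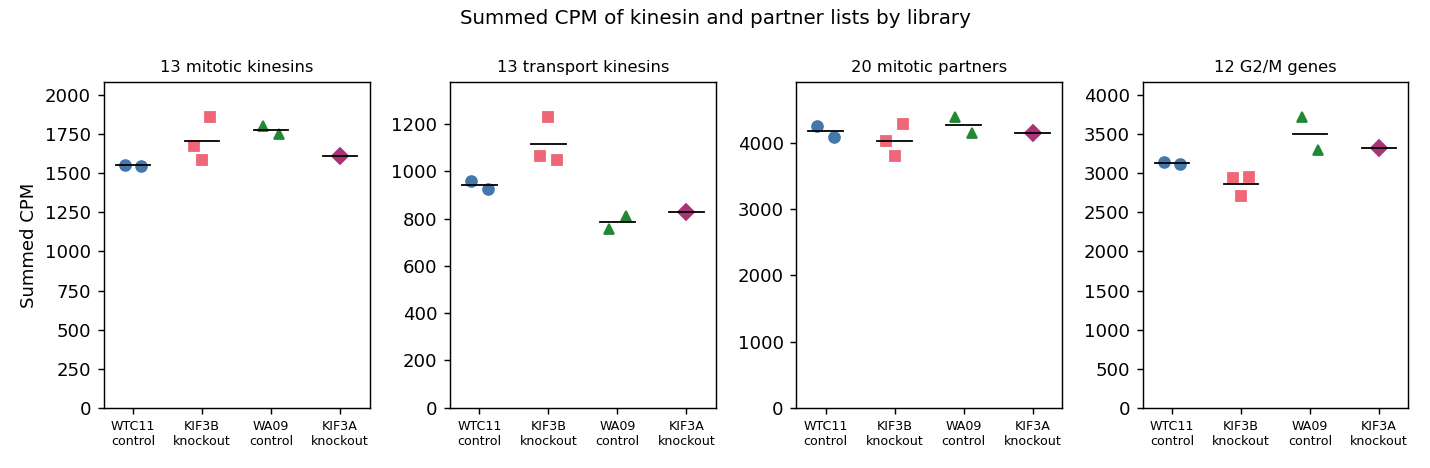
Summed CPM of 13 mitotic kinesins, 13 cargo kinesins, 20 mitotic partners and 12 G2/M genes in each library (points) with group means (lines), on linear axes from 0. The KIF3B knockouts lie above the WTC11 controls in both kinesin sums (at least 1588 against 1555 and 1048 against 959) and below them in the G2/M sum (at most 2947 against 3118). The mitotic sum leaves out KIF2A, and its separation depends on that.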

How the data were processed

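The authors deposited raw counts of reads for each gene in each of 8 libraries. Per the submitters' processing notes, STAR and the build hg38 were used; the counter, annotation, strand setting and treatment of multi-mapped reads are not stated there. Entries without a gene name (20993) held 0.446% to 0.673% of the counts and stayed in the totals. Gene positions, transcript lengths and overlaps came from GENCODE release 29 on GRCh38 (58039 entries matched by identifier), and promoters from RefSeq on GRCh38.p14.

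The tests came from edgeR 4.0.16 (robust quasi-likelihood fit, filterByExpr, TMM) under R 4.3.3. Benjamini-Hochberg adjustment covered all genes tested, with a threshold of 0.05. This test reports no standard error, so each SE is the log2 fold change over the square root of its F statistic, without sign. The pooled comparison had line as a term (13238 genes, 31 kinesins). For the other 4 comparisons, 1 model held all groups (14216 genes, 34 kinesins), and KIF2B, KIF4B, KIF19 and KIF25 were too low to be tested. Alternatives used DESeq2 1.42.0, limma voom 3.58.1, DESeq2 size factors, no filter, guide number as a replicate block, removal of a loess trend on length, detected genes as a covariate, WTC11 libraries alone, and each library left out. CPM use TMM-scaled totals over the genes tested. Only the edgeR fit of KIF3B knockout against WTC11 control was run on simulated data, with large changes planted in genes of higher count. The other fits, and effects as small as most of those above, were not tested in this way.

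In each comparison the kinesins that passed, or else the 10 with the smallest p, were named, with the 3 most abundant per kilobase in each role, and up to 4 genes of each partner list or else the 2 most abundant. Other genes were chosen after their values were seen. The members, roles and lists were chosen with earlier results of these data known.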

Additional observations from a re-analysis of the deposited data

How the results depend on the processing

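No library except the KIF3A knockout has a group of its own, so leaving that one out gives no value for KIF3A or for the difference. The number of genes called was 0 in the pooled comparison, with 37 in DESeq2 and 154 with no filter on low counts. For KIF3B it was 0, with 246 in DESeq2, 676 with no filter, 1 with the guide number as a replicate block, and 0 to 5 when 1 library was left out (5 without WTC11 control 2). For KIF3A it was 0, with 1 in DESeq2, 2 with no filter and 0 to 1 when 1 library was left out. For the difference it was 0, with 17, 160 and 0 to 1 in the same order. Between the lines it was 4, with 219 in DESeq2, 525 with no filter, 0 to 1 when 1 library was left out, and 0 with DESeq2 size factors, limma voom, the replicate block or detected genes as a covariate. The kinesin median moved by more than the spread between libraries (0.0945) in the pooled comparison (0.05 at first, -0.050 with the length trend removed, -0.0070 to 0.24 when 1 library was left out, the 0.24 without the KIF3A knockout). It did so for KIF3B (0.25 at first, 0.074 with the length trend removed, 0.057 with detected genes, 0.17 to 0.21 when 1 library was left out). For the difference it was -0.32 at first, -0.42 with the replicate block, -0.15 with the length trend removed and -0.44 to -0.24 when 1 library was left out. KIFC1 reversed to -0.052 in the KIF3B comparison with detected genes as a covariate. The causes were not tested. Deviations of guide 2 from guide 1 had a correlation of -0.02 between control and knockout over 14216 genes. That check sets 1 control difference against 1 knockout difference, so it cannot decide whether guide numbers pair the libraries. At this depth a count of 0 allows up to 1.38 CPM in a library.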
